A study of Homo sapiens with 24 samples.

Results

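The 7 genes described here are a group of negative regulators and readouts of ERK signalling: the dual-specificity phosphatases DUSP4, DUSP5 and DUSP6, the Sprouty protein SPRY2, the Sprouty-related proteins SPRED1 and SPRED2, and the pleckstrin homology-like protein PHLDA1. They were taken by symbol from the deposited count table, and all 7 were found among its 34213 genes. Gene expression was measured by RNA sequencing of total RNA from HEL, a human erythroleukaemia cell line in which JAK2 carries an activating mutation. Cells were given the solvent DMSO or 500 nM of ruxolitinib, fedratinib, momelotinib, pacritinib or itacitinib, for 4 h or for 48 h. That made 12 groups with 2 libraries each, 24 in all, so n = 2 for every group value. All groups come from this line alone, and no line without the JAK2 mutation was part of the comparison. The labels do not say whether the 2 libraries of a group came from separate cultures. Each p-value reflects the spread between libraries within groups, estimated over all 24 libraries, whether that is biological or technical.

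ERK1 and ERK2 are the last kinases of the RAS, RAF and MEK cascade, and an active JAK kinase feeds that cascade through receptor adaptors as well as phosphorylating STAT proteins. Active ERK induces genes that then restrain it. DUSP6 removes the activating phosphates from ERK in the cytoplasm, DUSP5 does so in the nucleus, and DUSP4 is a nuclear phosphatase that acts on ERK and related kinases. SPRY2 blunts signalling between receptor tyrosine kinases and RAF, while SPRED1 and SPRED2 bring the RAS-inactivating protein neurofibromin to the membrane. PHLDA1 transcript is used, with that of DUSP6, as a readout of ERK activity. Of the compounds, ruxolitinib and momelotinib are known as inhibitors of JAK1 and JAK2, fedratinib and pacritinib as inhibitors with a preference for JAK2, and itacitinib as one with a preference for JAK1.

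The phosphatases act through a cysteine in a short catalytic loop, and the stretch that encodes it is shown for DUSP5 and DUSP6 because these genes carry several of the larger differences below. Each stretch lies in an exon of the coding sequence (exon 4 of DUSP5 at chr10:110510040-110510093, plus strand; exon 3 of DUSP6 at chr12:89349488-89349541, minus strand; GRCh38, GENCODE 29). Capitals mark the codons for the histidine and the catalytic cysteine that follows it, and for the arginine of the loop. The cysteine is codon 263 of DUSP5 and codon 293 of DUSP6.
DUSP5: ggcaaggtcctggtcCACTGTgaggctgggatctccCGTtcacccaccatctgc
DUSP6: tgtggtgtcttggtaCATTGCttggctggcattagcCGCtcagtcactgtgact
The stretches are 54 bases long and are identical at 30 of them, so reads from these coding regions differ at many positions between the genes.

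The RefSeq promoter table (GRCh38.p14, 250 bases before and 50 after each start) held entries for 5 members: DUSP6, SPRY2 with 3 starts, SPRED1, SPRED2 with 2 starts, and PHLDA1. Both strands were searched for TTCNNNGAA (STAT), CCGGAA (ETS), TGANTCA (AP-1), TGACGTCA (CRE), GGGCGG (SP/KLF) and the CArG box of serum response factor. None of these motifs contains another. Of 35116 promoters in the table, 7.66% held the STAT motif, 17.2% the ETS motif, 7.71% AP-1, 1.85% CRE, 45% SP/KLF and 1.29% CArG. The DUSP6 window held none of these motifs, and no member's window held the STAT, CRE or CArG motif. For DUSP6, SPRED1 and PHLDA1, 0 of the 250 bases before the RefSeq start lay outside exons that GENCODE 29 gives for the gene. Sequence before the GENCODE start of these genes was therefore not searched. SPRED1 had an SP/KLF match from base -31 to -26. PHLDA1 had an ETS match from -89 to -84 and an SP/KLF match from -36 to -31. SPRED2 had an SP/KLF match from 42 to 47 of its first start and AP-1 matches from -6 to 1 and from 35 to 41 of the other start. The first SPRY2 start had the most matches of any window searched here, an ETS match from -142 to -137 and SP/KLF matches from -102 to -97 and from -42 to -37, and another of its starts had an SP/KLF match from 24 to 29. The 250 bases before the first start (chr13:80341127-80341376, minus strand) are printed with their matches in capitals, because this window held the most matches.
SPRY2: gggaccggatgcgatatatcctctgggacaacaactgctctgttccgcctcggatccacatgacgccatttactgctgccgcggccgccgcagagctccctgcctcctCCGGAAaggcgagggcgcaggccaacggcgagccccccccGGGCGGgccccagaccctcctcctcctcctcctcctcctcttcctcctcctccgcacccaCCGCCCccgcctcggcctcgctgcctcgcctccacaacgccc
A match to these letters is a description of the window and not a measured binding site.

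Sequencing depth was 32153866 to 56618281 counts per library. The erythroid genes GATA1 and KLF1 and the megakaryocyte gene ITGA2B, which mark HEL cells, were detected in every library. Of the markers of other cells, MS4A1 was at 0 counts in 23 libraries and KRT5 in 20, and CD3D, CD3E, EPCAM and COL1A2 had medians of at most 0.120 CPM (counts scaled for sequencing depth). PECAM1 was present at 126.5 to 183.5 CPM, CD79A at 3.26 to 7.84, CDH5 at 2.39 to 14.3 and COL1A1 at 0.246 to 1.01, and their part in the results was not tested. The RN7SL copies, RNAs that can vary with library preparation, made up 2.42 to 2.52% of the counts of the 4 h DMSO libraries and 2.80 to 3.98% under inhibitor. The ranges at 48 h were 3.05 to 3.36% for DMSO and 3.10 to 4.76% under inhibitor. Mitochondrial rRNA made up 0.00716 to 0.0181% of counts in the 4 h DMSO libraries and 0.0586 to 0.0912% in those of 48 h. Under inhibitor it was 0.0141 to 0.0611% at 4 h, highest with ruxolitinib, and 0.0337 to 0.128% at 48 h. The part of either in the differences between inhibitor and DMSO, or between the times, was not tested.

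Compared per kilobase of annotated exon, the SPRED genes had the highest levels. The mean over the 24 libraries was 8.69 CPM per kilobase for SPRED2, 7.36 for SPRED1, 4.32 for DUSP5, 3.18 for SPRY2, 2.31 for PHLDA1, 1.57 for DUSP6 and 0.205 for DUSP4. DUSP4 is therefore the member with the least information, with 9 to 127 counts per library. DUSP6 had 42 to 492 counts and SPRED1 1191 to 3899. All 7 passed the filter on low counts and were among the 16076 genes tested. By GRCh38 coordinates (GENCODE 29), SPRED2 lies on chromosome 2 from 65310851 to 65432637 and SPRED1 on chromosome 15 from 38252326 to 38357249. DUSP5 lies on chromosome 10 from 110497838 to 110511544, and SPRY2 on chromosome 13 from 80335976 to 80340951. PHLDA1 (76025447 to 76033932) and DUSP6 (89347232 to 89353271) are both on chromosome 12, and DUSP4 is on chromosome 8 from 29333064 to 29350668. DUSP6 overlaps the antisense gene AC024909.2, which had 0 to 7 counts, and PHLDA1 overlaps the antisense genes AC011611.3 and AC011611.4. The sources used here do not say whether counting used strand, so reads of the overlapping antisense genes cannot be told apart from those of PHLDA1 and DUSP6 unless it did.

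**Figure D1:**
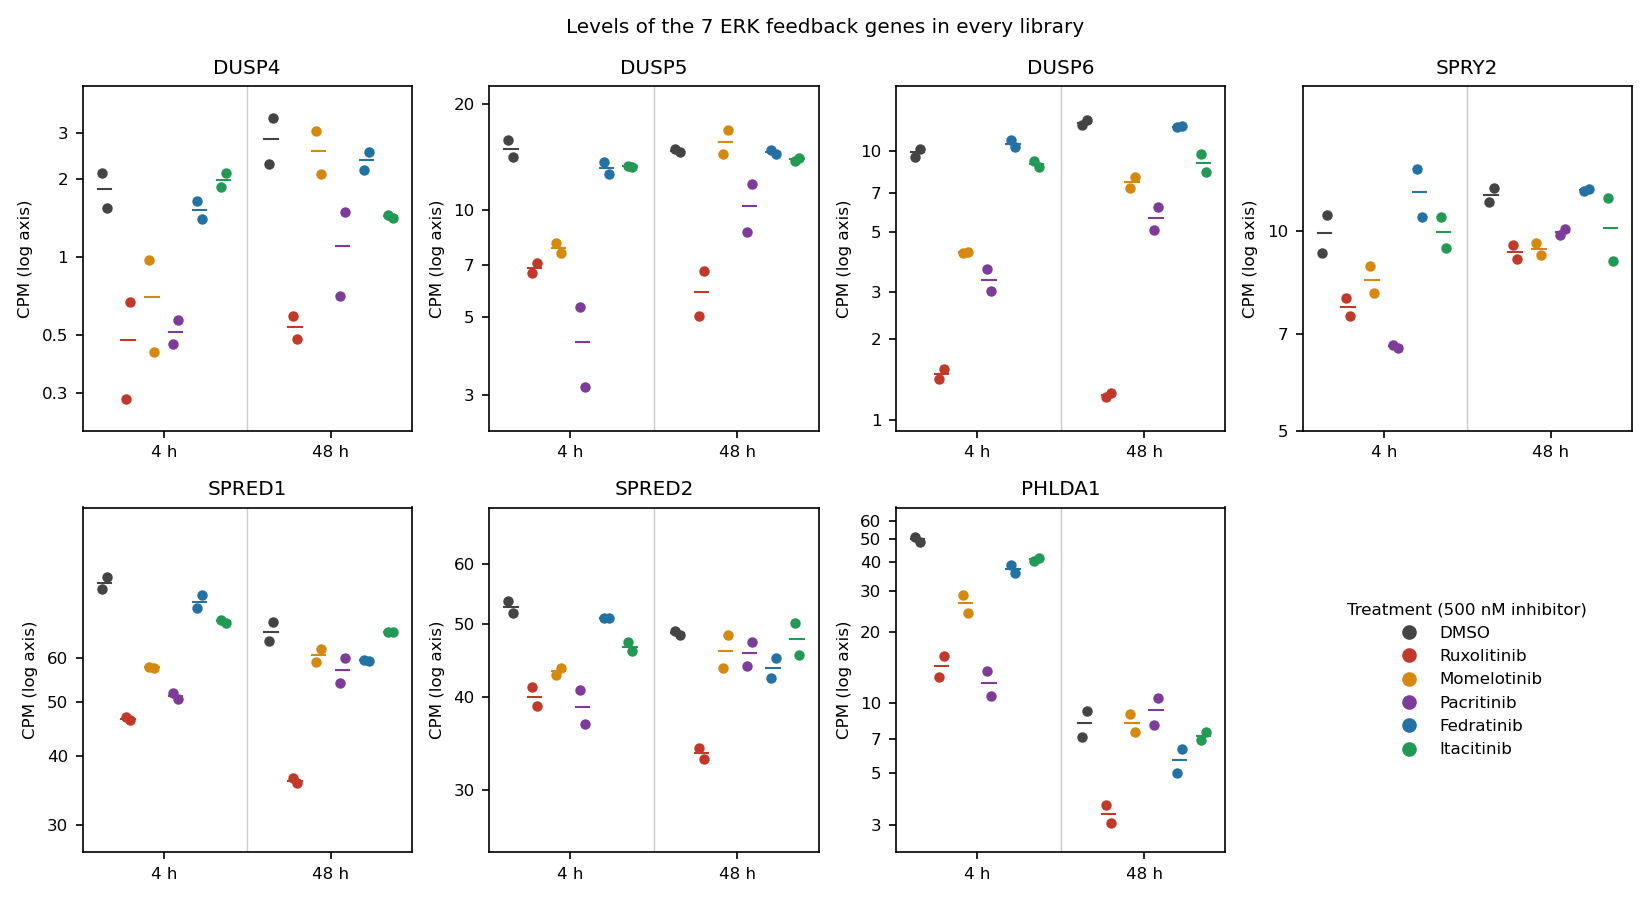
CPM of each gene (log axis) in each library, with 4 h on the left and 48 h on the right of each panel; points are libraries and bars are means of the 2 libraries of a group. DUSP6 was lowest in the ruxolitinib libraries at both times, and PHLDA1 with DMSO was 50.1 CPM at 4 h and 8.21 CPM at 48 h.

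In DMSO alone, 3 members changed between 4 h and 48 h of culture, and each inhibitor is read against the DMSO level of its own time. PHLDA1 stood at 51.3 and 48.9 CPM at 4 h and at 7.16 and 9.26 CPM at 48 h. It thus fell by 2.61 ± 0.13 on the log2 scale (fold change ± SE, adjusted p = 6.01e-16; edgeR's quasi-likelihood test with Benjamini-Hochberg adjustment over all tested genes, as throughout). SPRED1 stood at 79.95 and 83.8 CPM at 4 h and 64.2 and 69.6 CPM at 48 h, a fall by 0.29 ± 0.05 (adjusted p = 0.000615). DUSP6 was 9.57 and 10.3 CPM at 4 h and 12.5 and 13.1 CPM at 48 h, a rise of 0.37 ± 0.11 (adjusted p = 0.0352). The 4 values of each of these genes did not overlap between the times. How many of all tested genes did so was not counted, so nothing further is read from it. In all, 3 of the 7 members passed the test here (8.16% of all tested genes did). The DUSP6 call was lost without each of the 4 DMSO libraries in turn (adjusted p 0.217 and 0.113 without replicates 1 and 2 at 4 h, and 0.104 and 0.227 without replicates 1 and 2 at 48 h). In bulk RNA, fewer cells that express a gene and less RNA per cell cannot be told apart.

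After 4 h, ruxolitinib, momelotinib and pacritinib lowered most of the group, while fedratinib and itacitinib each lowered 1 member. Ruxolitinib lowered 7 of 7 members (5.04% of all tested genes were lower), pacritinib 7 of 7 (17.4%) and momelotinib 6 of 7 (3.79%), with SPRY2 as the exception. Fedratinib lowered PHLDA1 alone (0.970%) and itacitinib SPRED1 alone (0.106%). None of the 7 passed the test as higher with any inhibitor. Of all tested genes, 3.42% did so with ruxolitinib, 2.21% with momelotinib, 13.1% with pacritinib, 0.616% with fedratinib and 0.672% with itacitinib. The median log2 fold change over the members was -1.11 with ruxolitinib, -0.91 with momelotinib, -1.58 with pacritinib, -0.11 with fedratinib and -0.16 with itacitinib, where the medians over all tested genes lay between -0.004 and 0.007. All 7 members lay below both DMSO libraries with ruxolitinib, momelotinib and pacritinib. Of all tested genes, 24.8%, 21.7% and 32.3% did so with these compounds. With itacitinib 5 members lay below both DMSO libraries (22.2% of all tested genes did) and with fedratinib 4 (22.8%). With fedratinib 1 member lay above both (22.3% of all tested genes did). The members were chosen with earlier results of these data known, so the shares of all tested genes are background and not a test.

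Among the phosphatases at 4 h, DUSP6 separated the compounds most clearly. Its libraries with DMSO were at 9.57 and 10.3 CPM, those with ruxolitinib at 1.42 and 1.55, with momelotinib at 4.18 and 4.23, and with pacritinib at 3.64 and 3.02. With fedratinib it was at 11.05 and 10.4 CPM and with itacitinib at 9.21 and 8.76. The ruxolitinib values, which were 14.98% of the DMSO mean, lay below those of every other group at this time, and the fedratinib values lay just above DMSO. DUSP6 fell by 2.73 ± 0.15 with ruxolitinib (adjusted p = 3.81e-15), by 1.58 ± 0.13 with pacritinib (3.76e-11) and by 1.24 ± 0.12 with momelotinib (1.62e-08). The changes were 0.11 ± 0.11 with fedratinib (adjusted p = 0.748) and -0.15 ± 0.11 with itacitinib (0.697).

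DUSP5, the nuclear ERK phosphatase, had another order of compounds. It stood at 15.8 and 14.2 CPM with DMSO, 6.67 and 7.10 with ruxolitinib, 8.09 and 7.56 with momelotinib, and 5.33 and 3.17 with pacritinib, whose libraries were the lowest. With fedratinib (13.7 and 12.7 CPM) and itacitinib (13.3 and 13.3) it was closer to DMSO, and both were below it. It fell by 1.81 ± 0.15 with pacritinib (adjusted p = 9.17e-11), by 1.11 ± 0.15 with ruxolitinib (1.85e-06) and by 0.93 ± 0.14 with momelotinib (3.30e-05).

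DUSP4 was the least abundant phosphatase. Its 4 h libraries were at 2.11 and 1.54 CPM with DMSO, 0.284 and 0.671 with ruxolitinib, 0.971 and 0.430 with momelotinib, and 0.461 and 0.570 with pacritinib. The DMSO values lay above those 3 groups, which overlapped each other, while fedratinib (1.65 and 1.397) and itacitinib (1.86 and 2.10) overlapped DMSO. It fell by 1.87 ± 0.39 with ruxolitinib (adjusted p = 0.00148), by 1.80 ± 0.38 with pacritinib (0.000442), and with momelotinib its log2 fold change was -1.396 ± 0.37 (0.0160). The sizes rest on single libraries. With ruxolitinib the log2 fold change was -1.43 without replicate 1 (adjusted p = 0.0625) and -2.65 without replicate 2. With momelotinib it was -2.07 without replicate 1 and -0.90 without replicate 2 (0.248), and the adjusted p was 0.149 without DMSO replicate 1.

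For the SPRED and Sprouty genes the log2 changes with ruxolitinib, momelotinib and pacritinib were smaller than those of the 3 phosphatases. SPRED1 was at 79.95 and 83.8 CPM with DMSO, 47.0 and 46.4 with ruxolitinib, 57.8 and 57.6 with momelotinib, 51.9 and 50.6 with pacritinib, 73.8 and 77.8 with fedratinib, and 70.2 and 69.4 with itacitinib. The replicates were close, and no inhibitor overlapped DMSO. SPRED1 fell by 0.81 ± 0.06 with ruxolitinib (adjusted p = 1.15e-12), by 0.68 ± 0.06 with pacritinib (3.90e-11), by 0.51 ± 0.06 with momelotinib (7.99e-08) and by 0.23 ± 0.05 with itacitinib (0.0306). The itacitinib call was lost without each of the 4 libraries in turn (0.0973 and 0.380 without DMSO replicates 1 and 2, and 0.0766 and 0.545 without itacitinib replicates 1 and 2) and in a fit of the 4 h libraries alone (0.0684).

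SPRED2 transcript was lowered by 3 of the 5 compounds at 4 h. It was at 53.6 and 51.7 CPM with DMSO, 41.2 and 38.8 with ruxolitinib, 42.8 and 43.7 with momelotinib, and 40.8 and 36.8 with pacritinib, and at 50.9 in both fedratinib libraries and 47.2 and 46.0 with itacitinib. All inhibitor libraries lay below DMSO. It fell by 0.44 ± 0.06 with pacritinib (adjusted p = 2.91e-06), by 0.40 ± 0.07 with ruxolitinib (6.17e-05) and by 0.28 ± 0.06 with momelotinib (0.00451, and 0.0548 without DMSO replicate 1).

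SPRY2 passed the test with 2 of the 5 compounds at 4 h. Its libraries were at 9.27 and 10.6 CPM with DMSO, 7.93 and 7.44 with ruxolitinib, 8.85 and 8.06 with momelotinib, and 6.74 and 6.67 with pacritinib. With fedratinib (12.4 and 10.5) and itacitinib (10.5 and 9.44) it overlapped DMSO. SPRY2 fell by 0.57 ± 0.12 with pacritinib (adjusted p = 0.000287) and by 0.38 ± 0.12 with ruxolitinib (0.0377), and with momelotinib the change was -0.24 ± 0.11 (0.264). The ruxolitinib call was lost when DMSO replicate 2 was left out (0.386) and when either ruxolitinib library was (0.0996 for replicate 1 and 0.256 for replicate 2), and with DESeq2 the adjusted p was 0.0516.

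PHLDA1 was lowered by 4 of the 5 compounds at 4 h. It was at 51.3 and 48.9 CPM with DMSO, 12.96 and 15.9 with ruxolitinib, 29.02 and 24.3 with momelotinib, 13.7 and 10.7 with pacritinib, 38.9 and 35.9 with fedratinib, and 40.5 and 41.7 with itacitinib. Every inhibitor lay below DMSO, and ruxolitinib and pacritinib overlapped each other as the lowest groups. It fell by 2.04 ± 0.12 with pacritinib (adjusted p = 3.91e-14), by 1.79 ± 0.12 with ruxolitinib (6.09e-13), by 0.91 ± 0.11 with momelotinib (1.01e-06) and by 0.42 ± 0.11 with fedratinib (0.0426). The fedratinib call was lost without each library in turn (0.184 and 0.202 without DMSO replicates 1 and 2, and 0.106 and 0.306 without fedratinib replicates 1 and 2) and with DESeq2 (0.208).

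**Figure D2:**
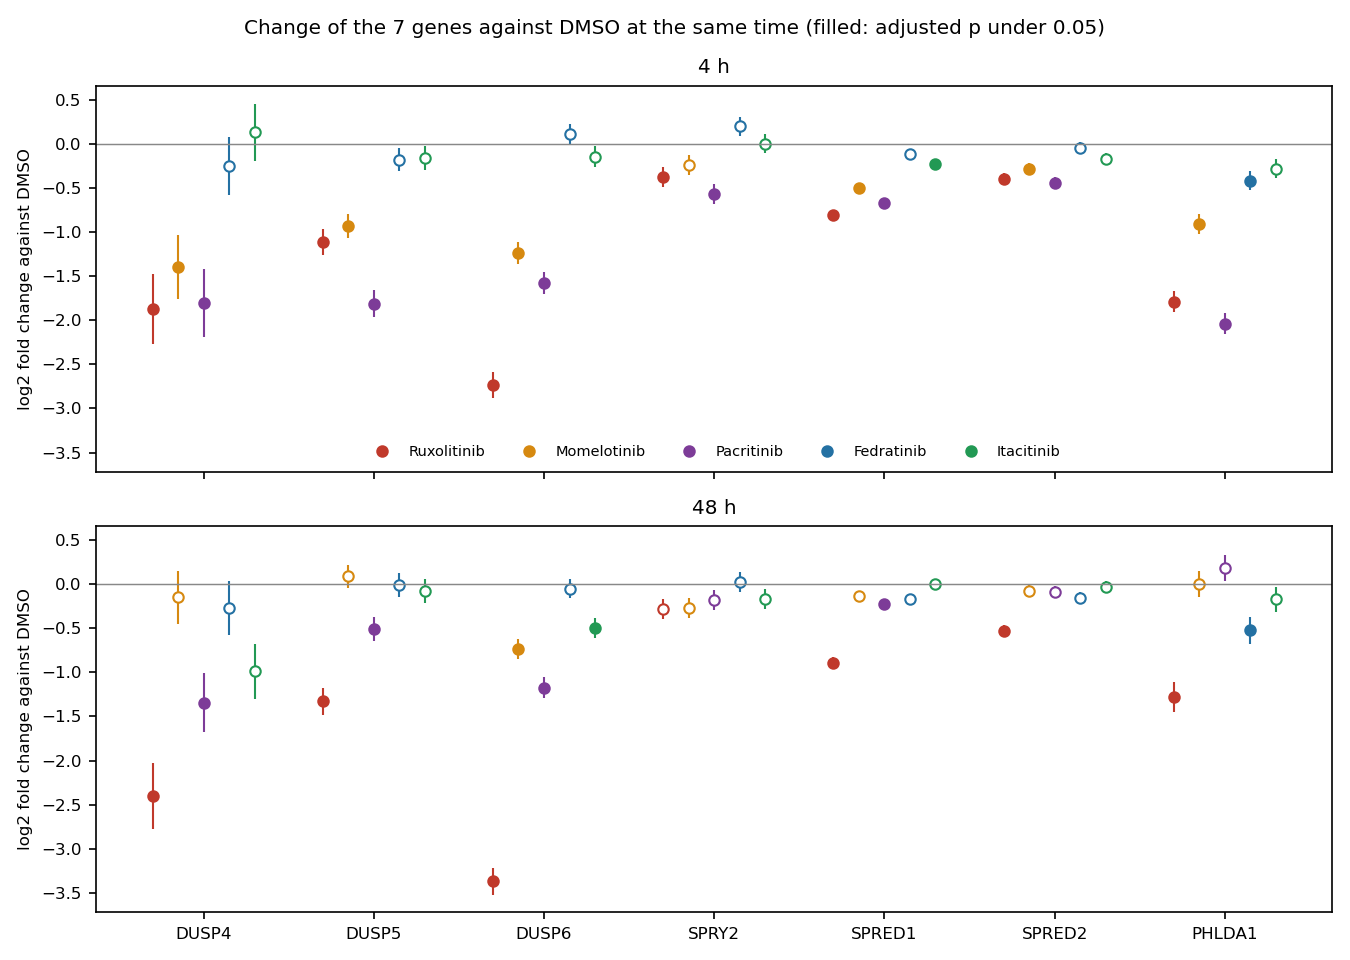
Log2 fold change of each gene against DMSO at the same time (vertical axis; bars are 1 SE), with 4 h above and 48 h below; filled points passed an adjusted p of 0.05. Ruxolitinib changed DUSP6 by -2.73 at 4 h and -3.37 at 48 h, while the fedratinib points for DUSP6 lie at 0.11 and -0.05.

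After 48 h, ruxolitinib still lowered most of the group, pacritinib lowered 4 members, and the other compounds lowered 1 each. The counts were 6 of 7 members with ruxolitinib (all but SPRY2; 13.2% of all tested genes were lower), 4 of 7 with pacritinib (DUSP4, DUSP5, DUSP6 and SPRED1; 10.1%), and DUSP6 alone with momelotinib (0.946%) and with itacitinib (0.355%). PHLDA1 was the member lowered by fedratinib (4.04%). No member passed the test as higher with any inhibitor at 48 h. Of all tested genes, 12.5% did so with ruxolitinib, 8.26% with pacritinib, 3.66% with fedratinib, 0.995% with momelotinib and 0.0871% with itacitinib. The medians of the members' log2 fold changes were -1.28 with ruxolitinib, -0.23 with pacritinib, -0.14 with momelotinib, -0.15 with fedratinib and -0.17 with itacitinib, against -0.005 to 0.007 for all tested genes. With ruxolitinib all 7 members lay below both DMSO libraries, as did 30.6% of tested genes. The numbers below DMSO were 6 with pacritinib (29.5%), 4 with fedratinib (25.5%), 4 with momelotinib (24.6%) and 3 with itacitinib (23.3%).

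DUSP6 reached its lowest level in the series here. With ruxolitinib at 48 h it was at 1.22 and 1.26 CPM, or 9.66% of the DMSO mean, whose libraries were at 12.5 and 13.1. It was at 7.34 and 8.07 CPM with momelotinib, 5.08 and 6.23 with pacritinib, 9.78 and 8.41 with itacitinib, and 12.3 and 12.4 with fedratinib. All inhibitors lay below DMSO, fedratinib by the smallest margin. DUSP6 fell by 3.37 ± 0.15 with ruxolitinib (adjusted p = 1.37e-17), by 1.18 ± 0.12 with pacritinib (1.21e-08), by 0.73 ± 0.11 with momelotinib (0.000353) and by 0.50 ± 0.11 with itacitinib (0.0274), and with fedratinib the change was -0.05 ± 0.11 (0.844). The first 3 of these calls held in every alternative run, whereas the itacitinib call was lost without DMSO replicate 1 (0.198), DMSO replicate 2 (0.254) or itacitinib replicate 2 (0.517).

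DUSP5 and DUSP4 were low at 48 h with ruxolitinib and, less so, with pacritinib. DUSP5 stood at 14.9 and 14.6 CPM in DMSO, against 5.03 and 6.73 under ruxolitinib and 8.68 and 11.9 under pacritinib. With momelotinib (14.4 and 16.9) and fedratinib (14.8 and 14.5) it overlapped DMSO, and with itacitinib (13.8 and 14.1) it was just below. DUSP5 fell by 1.33 ± 0.15 with ruxolitinib (adjusted p = 2.12e-08) and by 0.51 ± 0.14 with pacritinib (0.00928). DUSP4 was at 2.28 and 3.43 CPM with DMSO, 0.593 and 0.481 with ruxolitinib, 0.708 and 1.498 with pacritinib, 3.06 and 2.09 with momelotinib, 2.17 and 2.55 with fedratinib, and 1.46 and 1.42 with itacitinib. Ruxolitinib, pacritinib and itacitinib lay below DMSO and the other compounds overlapped it. With ruxolitinib DUSP4 fell to 18.8% of the DMSO mean (95% interval of the log2 fold change -3.16 to -1.63; adjusted p = 7.63e-06). It fell by 1.35 ± 0.34 with pacritinib (0.00430), and with itacitinib the change was -0.99 ± 0.31 (0.177). The pacritinib calls depended on single libraries: for DUSP5 the adjusted p was 0.0522 without DMSO replicate 1 and 0.224 without pacritinib replicate 1 (log2 fold change -0.32), and for DUSP4 it was 0.0987 without DMSO replicate 2 and 0.123 without pacritinib replicate 1, with log2 fold changes of -0.94 without pacritinib replicate 1 and -2.02 without replicate 2. For DUSP4 with itacitinib it was 0.0345 when no filter on low counts was used.

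The SPRED genes at 48 h stood apart from DMSO mainly with ruxolitinib. SPRED1 was at 64.2 and 69.6 CPM with DMSO, 36.5 and 35.8 with ruxolitinib, 54.1 and 59.9 with pacritinib, 59.1 and 62.2 with momelotinib, 59.4 and 59.4 with fedratinib, and 66.8 and 66.7 with itacitinib. Only the itacitinib libraries overlapped DMSO. SPRED1 fell by 0.89 ± 0.06 with ruxolitinib (adjusted p = 6.96e-14) and by 0.23 ± 0.06 with pacritinib (0.00353, but 0.0893 without DMSO replicate 2 and 0.108 without pacritinib replicate 1). With fedratinib it changed by -0.17 ± 0.06 (0.0517), which became a call without DMSO replicate 1 (0.0456), with RLE scaling (0.0467) and with DESeq2 (0.0391). SPRED2 was at 49.0 and 48.4 CPM with DMSO and 34.2 and 33.1 with ruxolitinib, a fall by 0.53 ± 0.07 (1.35e-07). Its libraries with the other compounds ranged from 42.4 to 50.1 CPM, and none of those changes passed the test.

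SPRY2 did not pass the test with any compound at 48 h, and PHLDA1 did so with 2. SPRY2 was at 11.1 and 11.6 CPM with DMSO, 9.52 and 9.07 with ruxolitinib, 9.59 and 9.20 with momelotinib and 9.85 and 10.1 with pacritinib, all below DMSO, and at 11.5 and 11.6 with fedratinib and 11.2 and 9.01 with itacitinib. Its lowest adjusted p was 0.0618, with ruxolitinib (-0.29 ± 0.11). PHLDA1 stood at 7.16 and 9.26 CPM in the DMSO libraries, at 3.67 and 3.06 under ruxolitinib and at 5.02 and 6.35 under fedratinib. It overlapped DMSO with momelotinib (8.95 and 7.51), pacritinib (8.04 and 10.5) and itacitinib (6.97 and 7.54). PHLDA1 fell by 1.28 ± 0.17 with ruxolitinib (adjusted p = 5.72e-07) and by 0.52 ± 0.16 with fedratinib (0.0332). The fedratinib call was lost without DMSO replicate 2 (0.423; -0.33), without fedratinib replicate 1 (0.349) and with DESeq2 (0.0571).

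Whether an inhibitor's change differed between the times was tested as the change at 48 h minus the change at 4 h. With momelotinib and pacritinib, several members were closer to DMSO at 48 h. Momelotinib's change was higher at 48 h for 3 of 7 members (1.57% of all tested genes were higher) and pacritinib's for 4 of 7 (10.3%). With ruxolitinib 0 of 7 passed (8.72% of all tested genes did, in either direction), with fedratinib 0 of 7 (4.12%) and with itacitinib 0 of 7 (0.0124%). At an unadjusted p below 0.05, 2 members passed with ruxolitinib, 0 with fedratinib and 3 with itacitinib, and DESeq2 called 0 for each of these compounds.

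PHLDA1 had the largest such difference among the members, 2.22 ± 0.19 with pacritinib (adjusted p = 7.82e-10), having been 24.4% of the DMSO mean at 4 h and 113% at 48 h. Both values are relative to DMSO levels that themselves were 50.1 CPM at 4 h and 8.21 CPM at 48 h, and with pacritinib PHLDA1 was 12.2 and 9.29 CPM at these times. Its difference with momelotinib was 0.91 ± 0.19 (0.00438), which was lost without DMSO replicate 1 at 48 h (0.0553) and without momelotinib replicate 1 at 48 h (0.0571). DUSP5 moved in the same direction, by 1.30 ± 0.21 with pacritinib (3.32e-05) and 1.02 ± 0.19 with momelotinib (0.00220). DUSP5 in DMSO was 14.96 CPM at 4 h and 14.7 CPM at 48 h, while with momelotinib it was 7.83 and 15.6 CPM. SPRED1 in DMSO was 81.9 CPM at 4 h and 66.9 CPM at 48 h, so this fall is part of its differences. At these times it was 51.3 and 57.0 CPM with pacritinib and 57.7 and 60.6 CPM with momelotinib. Its change against DMSO differed by 0.45 ± 0.08 with pacritinib (0.000109) and by 0.36 ± 0.08 with momelotinib (0.00676). The momelotinib value was lost without DMSO replicate 2 at 4 h (0.0683), DMSO replicate 1 at 48 h (0.0678) and momelotinib replicate 2 at 48 h (0.0749). SPRED2 differed by 0.35 ± 0.09 with pacritinib (0.00657, but 0.0765 without pacritinib replicate 2 at 4 h and 0.0591 without pacritinib replicate 2 at 48 h).

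DUSP6 did not pass this test with any compound. The differences were -0.64 ± 0.24 with ruxolitinib (adjusted p = 0.0949), 0.51 ± 0.17 with momelotinib (0.124), 0.40 ± 0.18 with pacritinib (0.115), -0.16 ± 0.16 with fedratinib (0.664) and -0.35 ± 0.16 with itacitinib (0.673). The 95% interval with ruxolitinib ran from -1.12 to -0.15 before adjustment. For DUSP4 with momelotinib the difference was 1.24 ± 0.48 (0.201), which became a call without momelotinib replicate 1 at 4 h (1.92; 0.0463). For PHLDA1 with ruxolitinib it was 0.51 ± 0.22 (0.156, and 0.0496 when no filter on low counts was used).

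**Figure D3:**
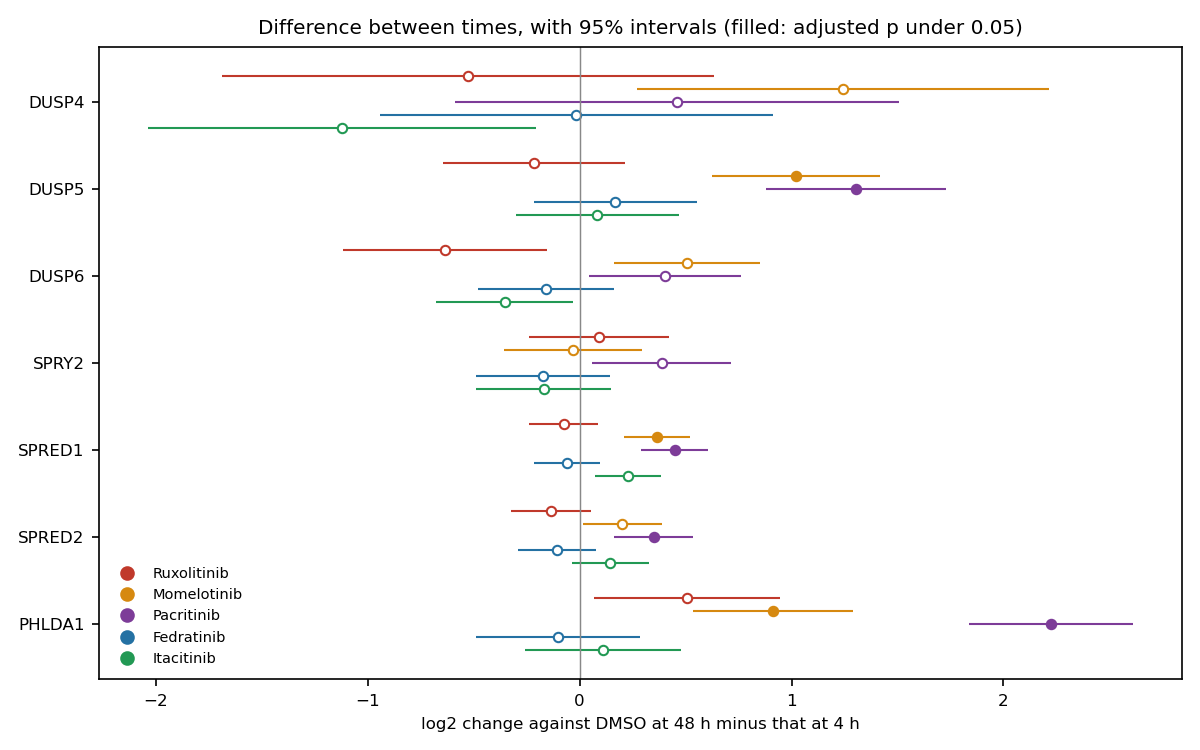
Log2 change against DMSO at 48 h minus that at 4 h for each gene and inhibitor, with 95% intervals; filled points passed an adjusted p of 0.05 and values above 0 are closer to, or above, DMSO at 48 h for a gene lowered at 4 h. The filled points are those of momelotinib for DUSP5, SPRED1 and PHLDA1 and of pacritinib for these and SPRED2.

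The inhibitors were also compared with each other at the same dose and time, in 10 pairs at each time. The DMSO means cancel in these contrasts, although the DMSO libraries enter the shared estimate of the spread. The share of all tested genes given with each pair counts both directions, unless it is said to be higher or lower. At 4 h ruxolitinib was lower than fedratinib for 7 of 7 members (3.52% of all tested genes differed) and than itacitinib for 7 of 7 (5.90%). It differed from momelotinib for 3 of 7 (0.722%), lower each time, and from pacritinib for 2 of 7 (25.6%), in opposite directions. DUSP6 was lower with ruxolitinib than with each of the others, by a log2 difference of -1.495 ± 0.16 from momelotinib, -1.16 ± 0.17 from pacritinib, -2.84 ± 0.15 from fedratinib and -2.59 ± 0.15 from itacitinib. DUSP5 was higher with ruxolitinib than with pacritinib by 0.70 ± 0.17 (adjusted p = 0.00203; 0.150 without pacritinib replicate 2, where the difference was 0.38). PHLDA1 was lower with ruxolitinib than with momelotinib by 0.88 ± 0.12 on the log2 scale. Against pacritinib its difference was 0.25 with a 95% interval of -0.02 to 0.52, and it became a call without pacritinib replicate 1 (0.0470). For the other members against pacritinib the intervals were -1.01 to 0.88 for DUSP4, -0.05 to 0.44 for SPRY2, -0.25 to -0.02 for SPRED1 and -0.09 to 0.18 for SPRED2, none past the threshold after adjustment.

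Some of these 4 h calls rested on single libraries. Against fedratinib, DUSP4 was lost without ruxolitinib replicate 1 (0.310) and fedratinib replicates 1 and 2 (0.0752 and 0.0516), and SPRY2 without ruxolitinib replicate 2 (0.0578) and fedratinib replicate 1 (0.0651). Against itacitinib, DUSP4 was lost without ruxolitinib replicate 1 (0.0561), while SPRY2 (0.0823 to 0.283) and SPRED2 (0.0833 to 0.299) were lost without each of the 4 libraries in turn. Against momelotinib, SPRED1 (-0.31 ± 0.06) was lost without ruxolitinib replicate 1 (0.0624) or 2 (0.0743).

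At 48 h the members separated ruxolitinib from all the other compounds. It was lower than fedratinib for 7 of 7 members (20.6% of all tested genes differed), than momelotinib for 6 of 7 (21.0%), than itacitinib for 6 of 7 (21.9%) and than pacritinib for 5 of 7 (24.6%). DUSP6 was lower by a log2 difference of -2.64 ± 0.16 from momelotinib, -2.20 ± 0.17 from pacritinib, -3.32 ± 0.15 from fedratinib and -2.87 ± 0.15 from itacitinib. DUSP5, which had been higher with ruxolitinib than with pacritinib at 4 h, was lower by -0.82 ± 0.16 at 48 h. PHLDA1 differed by -1.47 ± 0.17 from pacritinib and by -1.28 ± 0.17 from momelotinib. SPRY2 was the exception, with intervals of -0.25 to 0.22 from momelotinib, -0.34 to 0.13 from pacritinib and -0.34 to 0.11 from itacitinib. Its call against fedratinib was lost without each of the 4 libraries in turn (0.115 to 0.240) and with DESeq2 (0.0670). PHLDA1 against fedratinib was lost without ruxolitinib replicate 2 (0.0568) or fedratinib replicate 2 (0.0828), and DUSP4 against itacitinib without ruxolitinib replicate 2 (0.0852). DUSP4 against pacritinib (-1.05, interval -1.90 to -0.21) became a call without pacritinib replicate 1 (0.0175), without the filter on low counts (0.0248), in the fit of the 48 h libraries alone (0.0352) and with DESeq2 (0.0478).

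**Figure D4:**
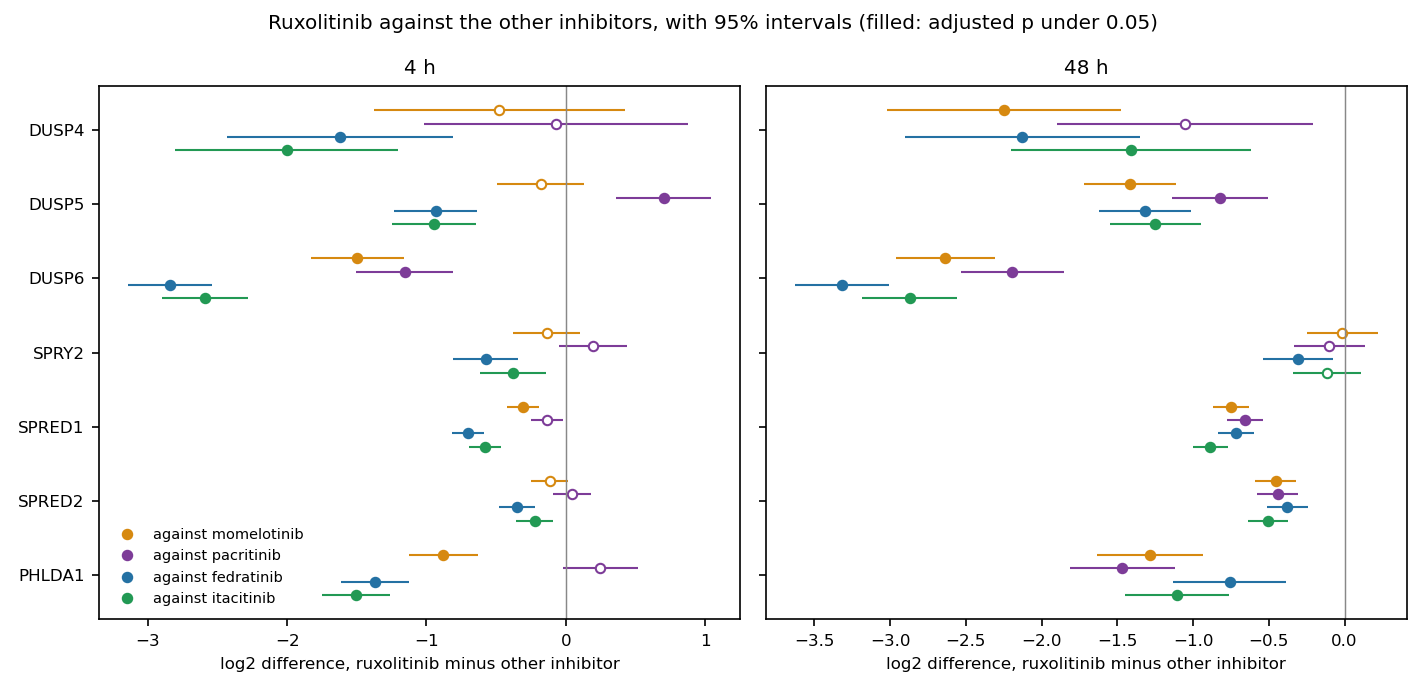
Log2 difference between ruxolitinib and each other inhibitor for each gene (points) with 95% intervals (lines), at 4 h on the left and 48 h on the right; filled points passed an adjusted p of 0.05. All DUSP6 intervals lie below 0, and DUSP5 against pacritinib is 0.70 at 4 h and -0.82 at 48 h.

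Ruxolitinib and itacitinib both carry a pyrrolopyrimidine ring system and were given at the same dose. As above, the former was lower for 7 of 7 members at 4 h and 6 of 7 at 48 h. For DUSP6 the libraries were 1.42 and 1.55 CPM against 9.21 and 8.76 at 4 h, and 1.22 and 1.26 against 9.78 and 8.41 at 48 h.

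Among the other compounds, fedratinib and itacitinib were the closest at 4 h, with 0 of 7 members different (0.261% of all tested genes differed); at an unadjusted p below 0.05, 2 members passed, and DESeq2 called 0. The DUSP6 interval between them was 0.02 to 0.48. At 48 h, 1 of 7 differed (5.94%), DUSP6, which was 0.45 ± 0.11 higher with fedratinib, a call lost without either fedratinib replicate (0.0951 and 0.0652) or itacitinib replicate 2 (0.221). Momelotinib and itacitinib differed for 5 of 7 members at 4 h (2.76%) and 0 of 7 at 48 h (1.01%), where 3 passed at an unadjusted p below 0.05 and DESeq2 called 0. DUSP6 had a log2 difference of -1.09 ± 0.13 at 4 h, lower with momelotinib, and at 48 h its interval ran from -0.47 to -0.001. Fedratinib and momelotinib differed for 5 of 7 at 4 h (1.41%) and 2 of 7 at 48 h (6.68%), DUSP6 being higher with fedratinib by 1.34 ± 0.12 and 0.68 ± 0.12. Fedratinib and pacritinib differed for 7 of 7 at 4 h (28.7%), all higher with fedratinib. At 48 h fedratinib was higher for 3 of 7 (6.48% of all tested genes were higher), the phosphatases DUSP4, DUSP5 and DUSP6, and lower for PHLDA1 (5.52% were lower). PHLDA1 was 1.62 ± 0.12 higher with fedratinib at 4 h and differed by -0.71 ± 0.15 at 48 h. The latter was lost without fedratinib replicate 1 (0.0551) or pacritinib replicate 2 (0.107).

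Pacritinib and itacitinib differed for 7 of 7 members at 4 h (29.1%), all lower with pacritinib, and 3 of 7 at 48 h (15.6%). Momelotinib and pacritinib differed for 4 of 7 at 4 h (20.7%) and 3 of 7 at 48 h (8.07%). At 4 h DUSP5 and PHLDA1 were higher with momelotinib by 0.88 ± 0.16 and 1.13 ± 0.12, calls kept in every alternative, whereas DUSP6 differed by 0.34 ± 0.14 (interval 0.05 to 0.62), which did not pass after adjustment. At 48 h DUSP4, DUSP5 and DUSP6 were higher with momelotinib, and without pacritinib replicate 1 their adjusted p was 0.336, 0.196 and 0.304. Without momelotinib replicate 1 it was 0.246 for DUSP4, and without momelotinib replicate 2 it was 0.122 for DUSP5 and 0.213 for DUSP6. The 4 h calls for SPRY2 (0.0596 to 0.226) and SPRED1 (0.0716 to 0.172) between momelotinib and pacritinib were lost without each of the 4 libraries in turn. Between fedratinib and momelotinib, SPRY2 was lost without fedratinib replicate 1 (0.327) or either momelotinib replicate (0.0804 and 0.148), and PHLDA1 without either fedratinib replicate (0.147 and 0.0514) or momelotinib replicate 2 (0.121). DUSP4 (1.14 ± 0.37, 0.131) became a call there without momelotinib replicate 1 (0.0498). DUSP4 between momelotinib and itacitinib at 4 h was lost without momelotinib replicate 2 (0.224) or itacitinib replicate 2 (0.124), and SPRED2 between pacritinib and itacitinib without pacritinib replicate 2 (0.109). At 48 h DUSP5 and SPRED1 between pacritinib and itacitinib were lost without pacritinib replicate 1 (0.431 and 0.143), DUSP5 also without itacitinib replicate 1 (0.0780) or 2 (0.129). DUSP4 and DUSP5 between fedratinib and pacritinib were lost without pacritinib replicate 1 (0.371 and 0.310) or either fedratinib replicate (0.0620 to 0.192), and PHLDA1 between fedratinib and momelotinib without fedratinib replicate 1 (0.334) or momelotinib replicate 1 (0.318).

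Over the 12 groups, the order of levels had the fewest overlapping neighbours for DUSP6, among the members. It ran from DMSO at 48 h (12.8 CPM), fedratinib at 48 h and at 4 h (12.4 and 10.7) and DMSO at 4 h (9.92) through itacitinib at 48 h and 4 h (9.09 and 8.98), momelotinib at 48 h (7.70), pacritinib at 48 h (5.66), momelotinib at 4 h (4.21), pacritinib at 4 h (3.33) and ruxolitinib at 4 h (1.49) to ruxolitinib at 48 h (1.24). Of the 11 neighbours in that order, 9 had libraries that did not overlap; those that did were DMSO at 4 h with itacitinib at 48 h, and itacitinib at 48 h with itacitinib at 4 h. The ratio of the highest to the lowest group mean was 10.4 for DUSP6, 14.9 for PHLDA1, 5.97 for DUSP4, 3.68 for DUSP5, 2.27 for SPRED1, 1.72 for SPRY2 and 1.56 for SPRED2. For PHLDA1 the order was first by time, since all 4 h groups lay above all 48 h groups, and 7 of 11 neighbours did not overlap. The number was 7 for SPRED1, 5 for DUSP5, 4 for SPRED2, 3 for SPRY2 and 1 for DUSP4. Neighbours were counted after sorting the groups by mean and for the members only, so no share of all tested genes stands beside these numbers. The lowest group was ruxolitinib at 48 h for DUSP6, SPRED1, SPRED2 and PHLDA1, ruxolitinib at 4 h for DUSP4, and pacritinib at 4 h for DUSP5 and SPRY2.

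The patterns of the members over these 12 group means are given as Pearson correlations of log2 CPM, without a test, since the 12 points share 1 cell line and fall at 2 times. SPRED1 and SPRED2 were the most alike pair (r = 0.971), followed by DUSP4 with DUSP5 (0.923) and with DUSP6 (0.902). PHLDA1 was the least like the rest, with r from -0.023 with SPRY2 to 0.66 with SPRED1. Outside the group, among the 11594 genes whose log2 CPM averaged 1 or more, the patterns nearest to DUSP6 were those of YES1 (0.969), MAFF (0.962), WNT5A (0.962), LTB (0.952), ST6GALNAC5 (0.952) and TAF13 (0.951). YES1 encodes a SRC-family kinase, MAFF a small MAF transcription factor and WNT5A a secreted ligand. Nearest to DUSP5 were CCR4 (0.979), CEBPA (0.978) and SLC45A4 (0.974), and nearest to DUSP4 were AL391121.1 (0.973), PLEKHG3 (0.97) and KCNK6 (0.964). SPRED1 was nearest to the glucose transporter gene SLC2A3 (0.979), to TRIB3 (0.968) and to MMRN1 (0.956), and SPRED2 to TRIB3 (0.956), ANKRD55 (0.954) and TWF1 (0.949). SPRY2 was nearest to CDC42EP3 (0.947), SIK1B (0.939) and TIPIN (0.938), and PHLDA1 to ALKBH1 (0.96), PTGS2 (0.945) and ZFP36 (0.944). Of these 24 pairs, 12 were also among the nearest over the 24 single libraries and 6 by Spearman correlation over the groups. Over the libraries r ran from 0.812 (TIPIN with SPRY2) to 0.976 (SLC2A3 with SPRED1), and none of the PHLDA1 neighbours was among the nearest. YES1 with DUSP6 had r = 0.961 over the libraries, but by Spearman (0.846) it was not among the nearest.

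Other genes around the members were read from lists, and their calls were not checked in the alternative runs. Of 17 other genes known as outputs of ERK signalling, 14 were tested. At 4 h ruxolitinib lowered 9 (5.04% of all tested genes were lower) and raised 1 (3.42% were higher), momelotinib lowered 8 (3.79%) and raised 1 (2.21%), and pacritinib lowered 10 (17.4%) and raised 0 (13.1%). Fedratinib lowered 2 (0.970%) and raised 1 (0.616%), and itacitinib lowered 1 (0.106%) and raised 0 (0.672%). At 48 h ruxolitinib lowered 8 (13.2%) and raised 0 (12.5%), momelotinib lowered 3 (0.946%) and raised 0 (0.995%), and pacritinib lowered 6 (10.1%) and raised 1 (8.26%). Fedratinib then lowered 0 (4.04%) and raised 3 (3.66%), and itacitinib lowered 2 (0.355%) and raised 0 (0.0871%). With ruxolitinib at 4 h the immediate-early transcription factor EGR1 fell to 18.9% of DMSO (95% interval of the log2 fold change -2.69 to -2.11) and the ETS factor ETV5 fell by 1.20 ± 0.08, beside DUSP6 at -2.73. At 48 h ruxolitinib lowered ETV5 (-3.19 ± 0.10), ETV4 (-4.18 ± 0.16) and the cyclin gene CCND1 (-5.34 ± 0.36). With fedratinib at 48 h, where DUSP6 changed by -0.05, EGR1 rose by 0.96 ± 0.12. The list's median log2 fold change was -0.53 with ruxolitinib, -0.54 with momelotinib and -0.57 with pacritinib at 4 h.

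Related phosphatases and Sprouty genes were listed separately. Of 12 other DUSP genes, all tested, ruxolitinib at 4 h lowered 3 (5.04% of all tested genes were lower) and raised 1 (3.42% were higher), momelotinib lowered 3 (3.79%), pacritinib lowered 6 (17.4%) and raised 1 (13.1%), fedratinib lowered 2 (0.970%) and itacitinib 0 (0.106%). At 48 h ruxolitinib lowered 3 (13.2%) and pacritinib 2 (10.1%), within 2 genes of what those shares of all genes would give, and the other compounds lowered 0. With ruxolitinib at 4 h DUSP3 fell by 0.70 ± 0.05, DUSP7 by 0.42 ± 0.05 and DUSP2 by 0.91 ± 0.14, while DUSP10 rose by 0.40 ± 0.08. The median of this list was -0.22 with ruxolitinib and -0.44 with pacritinib at 4 h. Of 6 other Sprouty, SPRED and PHLDA genes, 4 were tested. SPRY1 fell by 0.80 ± 0.17 with pacritinib at 4 h and by 1.10 ± 0.18 with ruxolitinib at 48 h, and PHLDA2 fell by 2.83 ± 0.57 with ruxolitinib and by 1.79 ± 0.50 with fedratinib at 48 h. The remaining comparisons of this list with DMSO gave no call, and its median with ruxolitinib was -0.58 at 4 h and -0.50 at 48 h.

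The kinases, adaptors and GTPase regulators of the RAS to ERK cascade itself were listed as 22 genes, all tested. At 4 h ruxolitinib lowered 2 (5.04% of all tested genes were lower) and raised 1 (3.42% were higher), momelotinib lowered 2 (3.79%) and raised 1 (2.21%), pacritinib lowered 7 (17.4%) and raised 3 (13.1%), and fedratinib and itacitinib changed 0. At 48 h ruxolitinib lowered 5 (13.2%) and raised 3 (12.5%), pacritinib lowered 4 (10.1%) and raised 3 (8.26%), fedratinib lowered 1 (4.04%) and raised 1 (3.66%), momelotinib raised 1 (0.995%) and itacitinib changed 0. Whether these counts differ from the shares of all genes was not tested, and nothing particular to the cascade is read from them. The list's median lay between -0.06 and 0.003 in these 10 comparisons. With pacritinib at 4 h the RAS exchange factor gene SOS1 fell by 0.60 ± 0.06 and the RAS GTPase-activating genes RASA1 and RASA2 by 0.50 ± 0.06 and 0.68 ± 0.10. The scaffold gene KSR1 rose with ruxolitinib by 0.20 ± 0.04 at 4 h and by 0.49 ± 0.04 at 48 h.

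The STAT-induced feedback genes CISH, SOCS1, SOCS2 and SOCS3 and the kinase genes PIM1 and PIM2 are set beside the members because JAK kinases drive both arms. Ruxolitinib lowered 6 of 6 at 4 h (5.04% of all tested genes were lower) and at 48 h (13.2%). Momelotinib lowered 5 of 6 at 4 h (3.79%) and 0 at 48 h (0.946%), pacritinib 6 of 6 at 4 h (17.4%) and 0 at 48 h (10.1%), fedratinib 2 at 4 h (0.970%) and 0 at 48 h, with 1 raised (3.66% were higher), and itacitinib 0 at both times. With pacritinib at 48 h 4 of 6 rose (8.26% of all tested genes were higher), CISH by 0.43 ± 0.07 and SOCS3 by 0.46 ± 0.12. In the same libraries 4 of the 7 ERK feedback genes fell, as given above. Of these, the calls for DUSP4, DUSP5 and SPRED1 depended on single libraries, while that for DUSP6 held in every alternative run. SPRY2, SPRED2 and PHLDA1, at 88.0%, 93.8% and 113% of DMSO, did not pass the test. With ruxolitinib the change of 4 of these 6 STAT-arm genes was higher at 48 h than at 4 h (4.32% of all tested genes were higher), for example by 1.54 ± 0.09 for PIM2 and 1.44 ± 0.11 for CISH, and for the 7 ERK feedback genes the count was 0; the difference between the lists was not tested. The comparisons of the inhibitors with DMSO share the DMSO libraries of their time, so their values are not independent of each other.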

How the data were processed

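RNA was sequenced from 24 HEL libraries, 2 for each of 12 groups. The authors deposited whole-number gene counts for GRCh38, made with bcl2fastq and STAR 2.5.1a per the submitters' processing notes, which also name edgeR. The sources used here give no counting tool, annotation or strand setting. Of 34343 entries, 130 repeated an identifier with identical counts and were used once, leaving 34213 genes. Counts were scaled by TMM, and CPM uses the scaled library sizes. In R 4.3.3, edgeR 4.0.16 with limma 3.58.1 fitted 1 mean per group across all 24 libraries to the 16076 genes that passed filterByExpr. Quasi-likelihood tests were adjusted by the Benjamini-Hochberg method within each of 36 comparisons, with a threshold of 0.05. The residual degrees of freedom were 12 and the common biological coefficient of variation was 0.0468. The SE is the log2 fold change divided by the square root of F, and intervals are at 95%.

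All 7 members were tested and counted in every comparison, but their single values are not all printed. From each list, all genes were counted and up to 4 with the smallest p were named, and pattern likeness was ranked by Pearson correlation. The members and the lists were chosen with earlier results of these data known. Alternatives were DESeq2 1.42.0, RLE scaling, no filter on low counts, the libraries of 1 time only, a replicate block, and leaving out each library in turn. They were read for the 7 members only, and not for the genes of the lists. The test was also run on simulated counts with known changes, and the outcome is not reported here. Those counts were drawn independently for each library, so they do not address how the replicates were made. Replicates of a group differed by more than counting noise, so none was treated as a repeat deposit. Depth, at 32153866 to 56618281 counts per library, limits DUSP4 most. Protein sequences were not used here. Some of the marker genes examined are not reported here.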

Additional observations from a re-analysis of the deposited data

Results flagged for a closer look

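For 7 values, the change against DMSO differed between 48 h and 4 h by a direct test of that difference, with edgeR's quasi-likelihood test. With momelotinib these were DUSP5 (log2 difference 1.02, adjusted p = 0.00220), SPRED1 (0.36, adjusted p = 0.00676) and PHLDA1 (0.91, adjusted p = 0.00438). With pacritinib they were DUSP5 (1.30, adjusted p = 3.32e-05), SPRED1 (0.45, adjusted p = 0.000109), SPRED2 (0.35, adjusted p = 0.00657) and PHLDA1 (2.22, adjusted p = 7.82e-10). In each case the change was less negative, or above 0, at 48 h. The value of DUSP5 with momelotinib and those of DUSP5, SPRED1 and PHLDA1 with pacritinib passed in every alternative run. SPRED1 and PHLDA1 with momelotinib, and SPRED2 with pacritinib, were lost without single libraries.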

How the results depend on the processing

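No member reversed its direction past the threshold in any alternative. Of the 252 values of a member in a comparison, DESeq2 kept 240 on their side of the threshold, gained 4 and lost 8; RLE scaling kept 250, gained 1 and lost 1; and no filter on low counts kept 240, gained 5 and lost 7. The libraries of 1 time kept 203 of 210, gained 1 and lost 6. Without 1 library at a time, 1040 values kept their side, 7 were gained and 101 lost. Counts of called members that moved by 1.5 times or more were as follows. Fedratinib against DMSO at 48 h gave 2 with RLE scaling and 2 in the fit with the replicate block. Fedratinib against itacitinib at 48 h gave 2 with that block and 2 with DESeq2. Without the filter on low counts, itacitinib against DMSO at 48 h gave 2, the ruxolitinib difference between times 1, and momelotinib against pacritinib at 4 h 2. DMSO at 48 h against 4 h gave 2 without that filter and 2 without any 1 library. Itacitinib against DMSO at 4 h gave 0 with the libraries of 1 time, and fedratinib against DMSO at 4 h gave 0 and against momelotinib at 48 h gave 1 with DESeq2. Without 1 library, the count was 0 in every case for fedratinib and itacitinib against DMSO at 4 h. It ranged from 4 to 6 for momelotinib against DMSO at 4 h, 0 to 2, 1 to 4 and 0 to 1 for fedratinib, pacritinib and itacitinib against DMSO at 48 h, and 1 to 4 for the momelotinib difference between times. Between inhibitors at 4 h it ranged from 2 to 3 for ruxolitinib with momelotinib, 1 to 3 with pacritinib and 4 to 5 with itacitinib, 3 to 5 for fedratinib with momelotinib, and 2 to 3 for momelotinib with pacritinib. At 48 h it ranged from 1 to 2 for fedratinib with momelotinib, 1 to 3 with pacritinib and 0 to 1 with itacitinib, 0 to 3 for momelotinib with pacritinib, and 2 to 3 for pacritinib with itacitinib. The cause was not tested.

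Same-numbered libraries did not deviate together: over 66 pairs of groups the correlation of their deviations ran from -0.0377 to 0.0480, with 0 above 0.1, so the numbers were not taken as a pairing. The replicate block gained 3 calls, SPRED1 with fedratinib against DMSO at 48 h (adjusted p = 0.0401) and against itacitinib at 48 h (0.0473) and SPRED2 between fedratinib and momelotinib at 4 h (0.0458), and lost 0.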
